A study of Mus musculus with 3 samples.

Results

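A group of 9 genes of tissue macrophages and scavenging phagocytes was followed through 3 thymic leukaemias of mice, chosen by name as rows of the deposited gene tables: C1qa, C1qb, C1qc, Csf1r, Adgre1, Cd68, Lyz2, Apoe and Vsig4. All 9 of 9 were listed, each at 1 locus, among 24437 genes. The leukaemias came from diseased Mb1-CreDPB mice of the C57BL/6 strain. In this model Cre recombinase is expressed from the mb-1 (Cd79a) locus and removes Spi1, which encodes the transcription factor PU.1, from the B lineage, on a background without Spib, which encodes the related factor Spi-B. Cre driven from that locus is not meant to act in macrophages, so Spi1 is not targeted in them by design. Each thymus was homogenised whole and red cells were lysed before total RNA was taken, so other cells of the organ could enter the RNA. The libraries formed 1 group and are called leukaemia 1 (Thy_853), leukaemia 2 (Thy_854) and leukaemia 3 (Thy_857). No control thymus was analysed here.

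Macrophages of the thymus are known for engulfing the many thymocytes that die during T cell selection. C1q, the recognition protein of the classical complement pathway, is secreted mainly by macrophages and related phagocytes in mice and binds immune complexes and dying cells. Macrophages depend on signals through the receptor encoded by Csf1r, and their development requires PU.1. Apolipoprotein E carries away lipid that macrophages take up with engulfed cells. None of these genes is a marker of B or T lymphocytes.

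The promoters are shown because PU.1, the factor deleted in the B lineage of these mice, is known to bind a purine-rich PU box, GAGGAA. RefSeq promoters of build GRCm38.p6 were matched by symbol for 6 of the 9 genes. Each run is the 250 bases before the annotated start, 5' to 3' on the gene's strand, and capitals mark GAGGAA on that strand or TTCCTC, its form on the other strand. For Apoe, which has 3 annotated starts, the start nearest to the deposited locus was taken.

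C1qb promoter, chr4:136886201-136886450, minus strand: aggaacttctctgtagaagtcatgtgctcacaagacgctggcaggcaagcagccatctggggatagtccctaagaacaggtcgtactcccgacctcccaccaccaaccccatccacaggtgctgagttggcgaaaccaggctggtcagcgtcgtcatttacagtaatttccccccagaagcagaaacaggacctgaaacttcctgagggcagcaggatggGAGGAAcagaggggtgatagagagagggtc

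C1qc promoter, chr4:136892915-136893164, minus strand: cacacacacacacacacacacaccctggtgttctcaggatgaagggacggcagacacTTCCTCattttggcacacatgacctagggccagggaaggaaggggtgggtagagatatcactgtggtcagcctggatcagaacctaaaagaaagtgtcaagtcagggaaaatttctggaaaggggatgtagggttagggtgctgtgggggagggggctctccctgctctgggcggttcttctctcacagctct

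Apoe promoter, chr7:19699189-19699438, minus strand: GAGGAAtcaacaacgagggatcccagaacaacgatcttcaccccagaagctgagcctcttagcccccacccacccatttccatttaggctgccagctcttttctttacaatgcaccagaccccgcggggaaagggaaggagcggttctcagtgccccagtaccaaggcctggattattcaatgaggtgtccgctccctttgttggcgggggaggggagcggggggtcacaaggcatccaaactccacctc

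Cd68 promoter, chr11:69666171-69666420, minus strand: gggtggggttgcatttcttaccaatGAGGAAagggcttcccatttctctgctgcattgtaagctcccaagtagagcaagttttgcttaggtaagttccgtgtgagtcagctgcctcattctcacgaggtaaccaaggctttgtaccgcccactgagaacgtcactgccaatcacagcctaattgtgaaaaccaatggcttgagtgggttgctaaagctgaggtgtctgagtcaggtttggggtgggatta

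Vsig4 promoter, chrX:96293439-96293688, minus strand: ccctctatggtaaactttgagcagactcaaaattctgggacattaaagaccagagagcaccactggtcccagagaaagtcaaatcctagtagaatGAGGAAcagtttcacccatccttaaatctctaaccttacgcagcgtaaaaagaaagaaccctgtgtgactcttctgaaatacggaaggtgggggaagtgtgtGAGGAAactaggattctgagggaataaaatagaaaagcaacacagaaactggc

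Lyz2 promoter, chr10:117282273-117282522, minus strand: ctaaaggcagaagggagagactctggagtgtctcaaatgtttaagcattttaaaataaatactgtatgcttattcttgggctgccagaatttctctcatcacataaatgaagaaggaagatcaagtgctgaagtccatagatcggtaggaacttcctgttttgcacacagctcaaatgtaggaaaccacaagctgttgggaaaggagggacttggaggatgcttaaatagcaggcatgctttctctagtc

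GAGGAA was found in 5 of these 6 windows and in 23.3% of all 32851 windows of this length. The match began 30 bases before the start in C1qb, 193 in C1qc, 250 in Apoe and 225 in Cd68. Vsig4 held a pair of matches, at 155 and 53 bases. Lyz2 held none. The longer AGGAAGT was in 3 of the 6 windows, those of C1qb, C1qc and Lyz2, and in 7.69% of all windows. GAGGAAGT, which overlaps both, was in that of C1qc and in 2.44% of all windows. Both strands were searched for each motif. These are matches of letters and no measure of binding.

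Transcripts of these genes, Vsig4 aside, were present in each leukaemia and lowest in leukaemia 3. Values below are in FPKM, which scales fragments by transcript length and by library size, and a run of 3 values follows the order of leukaemias 1, 2 and 3. FPKM of at least 1 was reached by 8 of the 9 genes in every leukaemia, and the exception was Vsig4. The summed FPKM of the 9 genes was 438, 401 and 199. In log2(FPKM + 1) their median level was 5.42, 5.02 and 4.34, where the 10412 genes that reached FPKM of 1 in any library had medians of 3.71, 3.68 and 3.71. In RNA of a whole organ, fewer macrophages, less of a transcript in each macrophage and expression by other cells cannot be told apart. With 1 library per leukaemia no test between leukaemias was possible. The deposited 95% intervals, which cover counting and assignment of fragments, stand in for error within a library, and ± is the SD over n = 3 leukaemias.

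The 3 C1q chains were close in level and ordered alike. C1qa, C1qb and C1qc encode the A, B and C chains of C1q and lie side by side on the minus strand of chromosome 4 in mm10, in the order C1qb (136880145 to 136886177), C1qc (136889802 to 136892914) and C1qa (136895916 to 136898844), with 3624 and 3001 bases between them. C1qa stood at 47.1, 31.6 and 23.6 FPKM, a mean of 34.1 ± 11.9. C1qb stood at 61.8, 38.1 and 27.5, a mean of 42.4 ± 17.6. C1qc stood at 47.04, 33.5 and 24.8, a mean of 35.1 ± 11.2. For each chain leukaemia 1 was highest and leukaemia 3 lowest, and no intervals overlapped between any pair of leukaemias. The FPKM of the chains lay above their own deposited upper bounds in all 3 leukaemias. For C1qb these bounds were 54.4, 33.6 and 24.4. On average FPKM was 1.19 times the midpoint of its interval for C1qa and 1.20 times for C1qb and C1qc, so their levels relative to other genes depend on which deposited value is read.

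The receptors and surface proteins were lower. Csf1r, the receptor of colony stimulating factor 1 and of interleukin 34, lies on chromosome 18, 61105572 to 61131139, and stood at 6.42, 5.60 and 3.42 FPKM (5.14 ± 1.55). Its intervals overlapped between leukaemias 1 and 2, and both lay above that of leukaemia 3. The microRNA gene Mir6983 lies inside the Csf1r locus. Adgre1, the adhesion G protein-coupled receptor that carries the F4/80 antigen of mouse macrophages, lies on chromosome 17, 57358686 to 57483529. It stood at 2.64, 1.87 and 1.20 FPKM (1.90 ± 0.723), and its intervals were apart in every pair. Vsig4, a complement receptor of Kupffer cells and other resident macrophages, lies on the X chromosome, 96247203 to 96293438. It was listed at 0.0130 FPKM in leukaemia 1, with a deposited interval of 0 to 0.0338, and at 0 in leukaemias 2 and 3, with status OK in all 3 tables.

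Cd68, a glycoprotein of late endosomes and lysosomes, lies on chromosome 11, 69664213 to 69666170. It stood at 13.4, 12.5 and 7.81 FPKM (11.2 ± 3.005), with leukaemia 3 apart from the others and leukaemias 1 and 2 overlapping. Lyz2, the lysozyme gene of macrophages and neutrophils, lies on chromosome 10, 117277541 to 117282272. It stood at 41.7, 64.3 and 19.3 FPKM (41.8 ± 22.5) and was the only one of the 8 expressed genes to be highest in leukaemia 2. Its FPKM also lay above its upper bounds, which were 36.7, 55.9 and 17.6. Lyz1, a near copy next to it with which Lyz2 can share reads, was named after its values were seen and stood at 0.0601, 0.172 and 0.0642 FPKM. Apoe, on chromosome 7, 19696244 to 19699188, was the most abundant of the 9 at 218, 214 and 91.1 FPKM (174 ± 72.01). Leukaemias 1 and 2 overlapped for Apoe and leukaemia 3 lay below them. By level Apoe ranked 258, 271 and 873 among the 24437 genes.

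**Figure D1:**
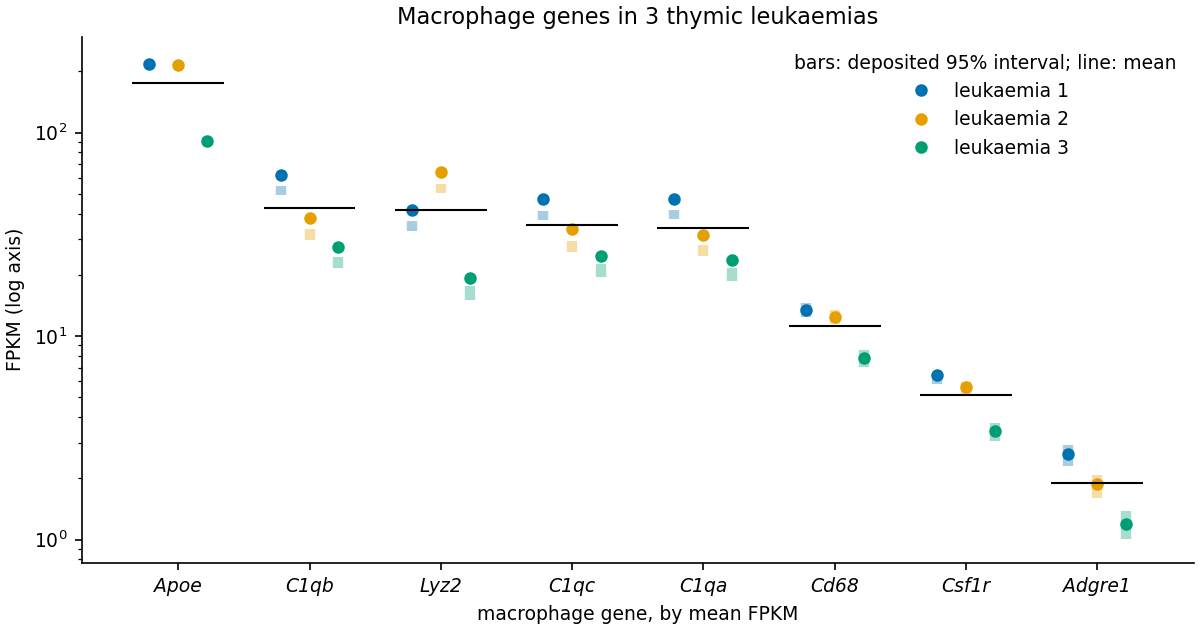
FPKM on a log axis of 8 macrophage genes in leukaemias 1, 2 and 3, with points for libraries, shaded bars for deposited 95% intervals and black lines for means. Leukaemia 3 was lowest for all 8, and the points of the C1q genes and Lyz2 lie above their bars. Vsig4, at 0.0130 FPKM or listed at 0, is not drawn.

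Ordered by mean FPKM the genes ran Apoe, C1qb, Lyz2, C1qc, C1qa, Cd68, Csf1r, Adgre1 and Vsig4. The ranges over leukaemias of C1qb, Lyz2, C1qc and C1qa overlapped between neighbours, so that these 4 were not separated by level. Apoe lay above C1qb in all 3 leukaemias, by 1.80, 2.46 and 1.69 on the log2(FPKM + 1) scale. The ranges of Cd68, Csf1r, Adgre1 and Vsig4 did not overlap those of their neighbours. Cd68 exceeded Csf1r by 0.96, 1.03 and 0.996 on this scale, and Csf1r exceeded Adgre1 by 1.03, 1.20 and 1.01.

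Differences between leukaemias were then read for single genes. A call required 3 things: a difference of 1 or more in log2(FPKM + 1), FPKM of 1 or more in either library, and deposited intervals without overlap. Of the 9 macrophage genes 8 reached that FPKM in each pair, and Vsig4 did not. For leukaemia 1 minus 3, 3 of 9 were called higher and 0 lower, where 6.75% of all 10265 genes tested were called higher and 3.22% lower. The called genes were Apoe, with a difference of 1.25 (218 against 91.1 FPKM), C1qb with 1.14 (61.8 against 27.5) and Lyz2 with 1.08 (41.7 against 19.3). The other 5 expressed genes lay between 0.71 for Cd68 and 0.97 for C1qa. All 8 had intervals apart with leukaemia 1 higher, which held for 35.8% of all genes tested. The median difference of the 9 genes was 0.90, beside -0.01 for all genes tested. This median and those of the other pairs include Vsig4, which is not among the genes tested.

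For leukaemia 2 minus 3, 2 of 9 were called higher and 0 lower, where 2.96% of 10047 genes were called higher and 1.72% lower. They were Lyz2, with a difference of 1.69 (64.3 against 19.3 FPKM), and Apoe with 1.22 (214 against 91.1). The others above FPKM 1 lay between 0.38 for Adgre1 and 0.61 for Cd68. All 8 again had intervals apart with leukaemia 2 higher, where 21.3% of all genes did. The median of the 9 genes was 0.46, beside -0.06 for all genes tested. The pairs with leukaemia 3 share that library, so they do not bear on each other independently.

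For leukaemia 1 minus 2, 0 of 9 were called, where 5.56% of 10295 genes were called higher and 2.60% lower. C1qb (0.68), C1qa (0.56), C1qc (0.48) and Adgre1 (0.34) had intervals apart with leukaemia 1 higher, where 36.4% of all genes did. Lyz2 had intervals apart with leukaemia 1 lower (-0.61), where 32.1% did. The intervals of Csf1r (0.17), Cd68 (0.10) and Apoe (0.03) overlapped. The median of the 9 genes was 0.17, beside 0.02 for all genes tested.

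**Figure D2:**
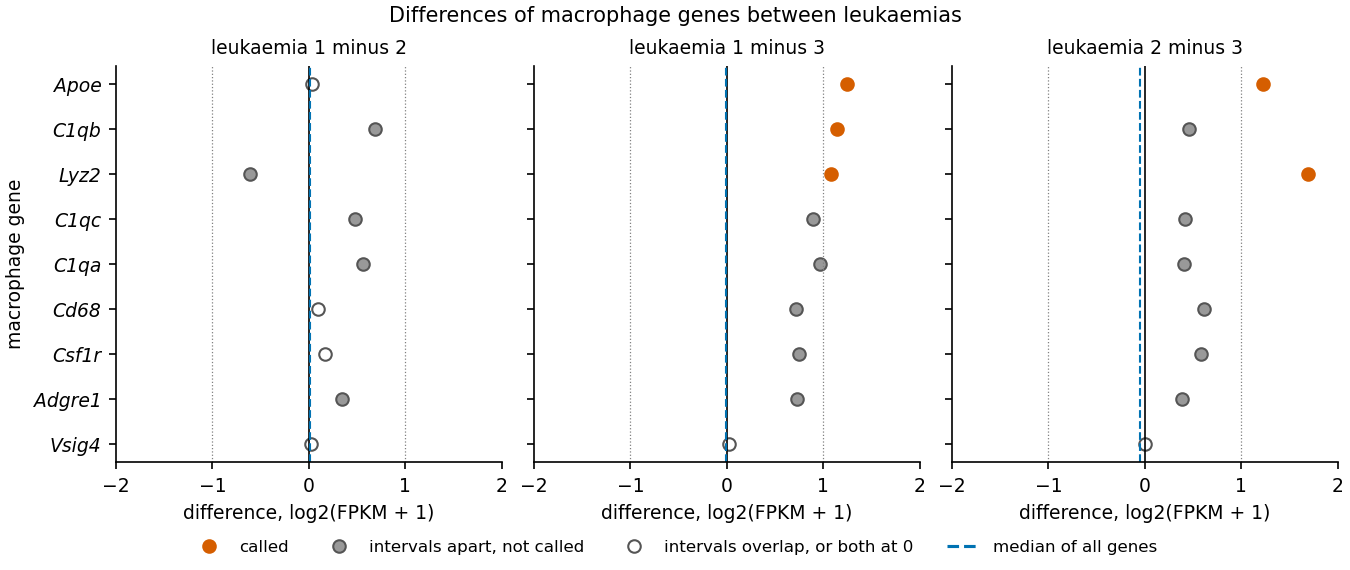
Differences in log2(FPKM + 1) of the 9 macrophage genes for leukaemia 1 minus 2, 1 minus 3 and 2 minus 3, with orange for called genes, grey for intervals apart without a call and white for overlapping intervals. Dotted lines mark differences of 1 and the dashed line the median of all genes tested. The 8 expressed genes lie right of 0 in both panels with leukaemia 3, and Lyz2 alone lies left of 0 between leukaemias 1 and 2.

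The SD over leukaemias of log2(FPKM + 1) had a median of 0.45 over the 9 genes, beside 0.22 over the same 10412 genes. The 9 include Vsig4 (0.01), which is not among the 10412. The SD was largest for Lyz2 at 0.85 and Apoe at 0.71. Of the expressed genes it was smallest on this scale for Adgre1 at 0.36 and Cd68 and Csf1r at 0.39. Adding 1 narrows the spread of a gene as low as Adgre1. As highest over lowest FPKM, Adgre1 varied by 2.21 times, against 1.72 for Cd68 and 1.88 for Csf1r. By that ratio C1qa and C1qc also lay below Adgre1, and C1qb, Apoe and Lyz2 lay above it. Ratios within a library do not depend on how libraries are scaled, so each gene was also read as its log2 ratio to the mean log2 FPKM of the 3 C1q chains. That mean contains each chain, which narrows the chains' own ranges by construction, so each chain was read against the mean of the other 2. On that scale C1qa was at -0.19, -0.18 and -0.14, C1qc at -0.20, -0.05 and -0.04 and C1qb at 0.39, 0.23 and 0.18, with ranges of 0.05, 0.16 and 0.21. Against the mean of all 3 chains Adgre1 ranged over 0.20 (-4.29, -4.20 and -4.40), Csf1r over 0.39 (-3.00, -2.61 and -2.89) and Cd68 over 0.48 (-1.94, -1.46 and -1.69). Apoe ranged over 0.79 (2.08, 2.64 and 1.85). Lyz2 ranged over 1.30, at -0.31, 0.91 and -0.39. The 5 genes outside C1q each had their highest ratio in leukaemia 2. These ratios share the C1q mean, so they are not 5 separate observations. In FPKM only Lyz2 of these 5 was highest in leukaemia 2.

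**Figure D3:**
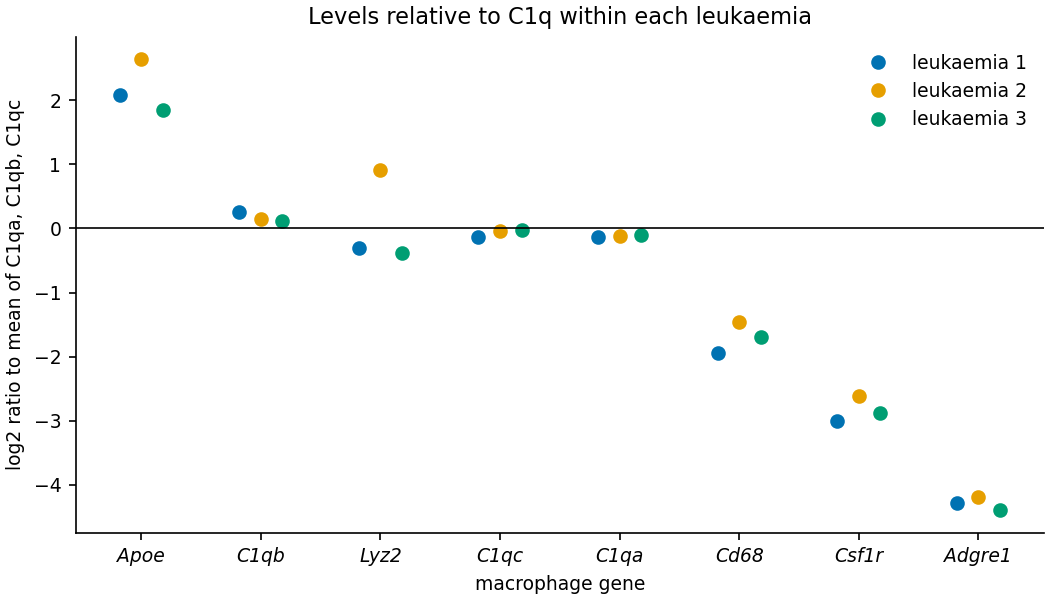
Log2 ratio of each expressed macrophage gene to the mean of C1qa, C1qb and C1qc within the same library, with 1 point per leukaemia. The mean contains the C1q chains, so their points are drawn together by construction. Of the other 5 genes Adgre1 varies by 0.20, and Lyz2 varies by 1.30 with leukaemia 2 highest.

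Further resident macrophage genes were scarcer. Of 20 such genes, 5 reached FPKM of at least 1 in all 3 leukaemias, and in log2(FPKM + 1) their list median was 1.26, 0.96 and 0.58. Those 5 were Aif1, a calcium-binding protein of macrophages, at 6.60, 2.75 and 3.15 FPKM, the receptor kinase gene Axl at 5.17, 4.19 and 2.63, the transcription factor gene Maf at 4.57, 2.93 and 3.06, Ms4a7 at 2.99, 3.48 and 2.37 and the Fc receptor gene Fcgr1 at 3.92, 1.78 and 1.17. For leukaemia 1 minus 3, 2 of 20 were called higher and 0 lower, Fcgr1 by 1.18 and Cd5l, a scavenger protein secreted by macrophages, by 1.16 (2.35 against 0.498 FPKM). Aif1 was the 1 gene called for leukaemia 1 minus 2, by 1.02, and 0 were called for leukaemia 2 minus 3. Only 12, 12 and 10 of the 20 could be called, in the order 1 minus 2, 1 minus 3 and 2 minus 3. The rest had FPKM below 1 in both libraries. Of all genes tested in these pairs, 5.56%, 6.75% and 2.96% were called higher and 2.6%, 3.22% and 1.72% lower. These shares stand beside the counts of each list below. Spic, the ETS factor gene of red pulp macrophages, stood at 1.80, 1.14 and 0.784 FPKM, and Mertk, a receptor for dying cells, at 1.07, 0.804 and 0.492. The mannose receptor gene Mrc1 stood at 1.83, 2.02 and 0.867. Trem2 stood at 0.825, 2.54 and 1.25 FPKM with no call. It was the only gene of the 20 lower in leukaemia 1 than in leukaemia 3 (-0.30), and it was also lower than in leukaemia 2 (-0.95). In all, 7 of the 20 reached FPKM of 1 in some leukaemias only, and 8 stayed below it in all 3. The highest of these 8 in any leukaemia was Siglec1, which encodes sialoadhesin, at 0.943, 0.591 and 0.212 FPKM. Among the others, Timd4, a receptor for phosphatidylserine, stood at 0.122, 0.127 and 0.0617 FPKM, the haemoglobin scavenger receptor gene Cd163 at 0.0688, 0.0633 and 0.0145 and Marco at 0.153, 0.0560 and 0. Clec4f, a lectin of Kupffer cells, was listed at 0 in all 3 leukaemias.

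Lipid efflux and lysosomal genes were measured as companions of Apoe and Cd68. Of 16 genes of scavenging and iron recycling, 11 reached FPKM of at least 1 in all leukaemias. For leukaemia 1 minus 3, 4 of 16 were called higher and 0 lower, and for leukaemia 2 minus 3, 3 were called higher and 0 lower. In the order 1 minus 2, 1 minus 3 and 2 minus 3, 14, 12 and 13 of the 16 could be called. Abcg1, an exporter of cholesterol to lipoproteins, stood at 34.5, 28.99 and 7.56 FPKM and was called in both, by 2.05 and 1.81. Abca1, which loads lipid onto apolipoproteins, stood at 5.15, 8.69 and 1.74 and was called in both, by 1.17 and 1.82. Nr1h3, which encodes the sterol-sensing nuclear receptor LXR alpha, was at 1.56, 0.765 and 0.580 FPKM and was not called. The other called genes for leukaemia 1 minus 3 were Grn (1.07), at 75.1, 25.8 and 35.1 FPKM, and the lysosomal protease gene Lgmn (1.01), at 25.02, 16.6 and 11.9. The protease genes Ctsd and Ctsb were the highest of the list by mean, at 143, 98.6 and 74.9 and at 63.4, 51.96 and 38.5 FPKM, with no call. For leukaemia 1 minus 2, Grn was called higher (1.51), and Scarb1 (-1.31) and Gpnmb (-1.79) lower. Scarb1 stood at 15.1, 38.97 and 21.7 FPKM, so that it was lower in leukaemia 1 than in leukaemia 3, without a call. Gpnmb stood at 0.152, 2.97 and 0.149 and was also called higher for leukaemia 2 minus 3 (1.79). Mfge8, at 10.96, 11.1 and 13.03 FPKM, was the 1 gene of the 16 highest in leukaemia 3. The iron exporter gene Slc40a1 stood at 3.34, 3.89 and 2.95 FPKM and Hmox1, which degrades haem, at 4.03, 4.13 and 2.21.

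Of 12 genes of the CSF1 pathway and macrophage regulators, Csf1 had the largest difference in both pairs with leukaemia 1. Csf1, a ligand of the receptor encoded by Csf1r, stood at 10.998, 2.21 and 1.81 FPKM. It was called higher in leukaemia 1 than in leukaemia 2 (1.90) and leukaemia 3 (2.097). Il34, the other ligand, stood at 0.0521, 0.0108 and 0.0198. For leukaemia 2 minus 3 Csf1 differed by 0.20, less in size than Fcer1g (-0.53), Klf4 (0.46) and Irf8 (0.42). Of the 12 genes of this list, only 8, 8 and 7 could be called, in the order 1 minus 2, 1 minus 3 and 2 minus 3. Among them 3 were called higher for leukaemia 1 minus 3, 2 for leukaemia 1 minus 2 and 0 for leukaemia 2 minus 3, and 0 were called lower in any pair. Beside Csf1 these were Cebpb, a transcription factor gene of macrophages, at 7.63, 2.02 and 2.01 FPKM and, for leukaemia 1 minus 3, Tyrobp, an adaptor of activating myeloid receptors, at 33.2, 18.1 and 15.6. Spi1 itself stood at 11.6, 6.70 and 7.13 FPKM, with no call. Fcer1g and Irf8, both known in other leukocytes as well, were not called, with Fcer1g at 26.2, 26.4 and 38.7 FPKM and Irf8 at 146, 207 and 155.

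The rest of the complement system was read beside C1q. C1ra and C1s1, which encode the proteases that act with C1q, were at 0.922, 0.360 and 0.182 FPKM and at 0.544, 0.250 and 0.136, so that neither reached FPKM of 1 in any leukaemia. Of 16 complement genes, 7 were called higher and 0 lower for leukaemia 1 minus 3. They were the factor B gene Cfb (1.99; 8.07 against 1.29 FPKM), the properdin gene Cfp (1.26; 11.2 against 4.08), the integrin gene Itgb2 (1.19; 25.04 against 10.4), C3 (1.18; 7.56 against 2.76), the inhibitor gene Cd55 (1.08; 11.03 against 4.70), Serping1 (1.03; 1.61 against 0.282) and C4b (1.004; 1.59 against 0.291). Cfb, Cd55 and C3 were also called higher for leukaemia 1 minus 2, by 1.47, 1.02 and 1.01, and 0 were called for leukaemia 2 minus 3. For leukaemia 1 minus 2, 1 minus 3 and 2 minus 3, only 9, 9 and 6 of the 16 could be called. Itgam, a chain of the complement receptor of phagocytes, stood at 1.63, 0.593 and 0.331 FPKM.

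Markers of other cells of the organ moved with these genes only in some lists and pairs, and their part in the differences was not tested. In log2(FPKM + 1) the list medians for leukaemia 1 minus 3 were 1.98 for neutrophil, 1.05 for monocyte and 1.53 for T lineage genes, beside 0.90 for the 9 genes. For leukaemia 2 minus 3 they were 1.70, 0.06 and -0.12, beside 0.46. Of 12 neutrophil genes, 7 were called higher and 0 lower for leukaemia 1 minus 3 and 8 higher and 0 lower for leukaemia 2 minus 3. Retnlg (1.61) was the 1 called higher for leukaemia 1 minus 2 and Camp (-1.17) the 1 called lower. Of the 12 neutrophil genes only 10, 8 and 9 could be called for leukaemia 1 minus 2, 1 minus 3 and 2 minus 3. Of 10 monocyte genes these were 9, 8 and 8. The summed FPKM of the 12 was 265, 219 and 30.2. S100a8 was the highest at 117, 92.1 and 13.8 FPKM. Of the 12, 7 were highest in leukaemia 1, among them S100a8, Retnlg (14.3, 4.04 and 1.80) and the granule gene Lcn2 (11.9, 10.3 and 0.799). The other 5, all granule genes, were highest in leukaemia 2, where Lyz2 was highest too. They were Ngp (11.6, 19.1 and 0.616), Camp (7.20, 17.4 and 0.376), Ltf (2.16, 3.49 and 0.108), Elane (0.554, 1.60 and 0) and Mpo (0.466, 1.499 and 0.0195). Of 10 monocyte genes, 5 were called higher for leukaemia 1 minus 3, 3 for 1 minus 2 and 1 for 2 minus 3, with 0 lower and summed FPKM of 1504, 1133 and 787. Plac8, which B cells also express, made up most of that sum at 1357, 1088 and 746, and Ly6c2 stood at 76.1, 18.4 and 25.8. The monocyte gene Cd14 stood at 1.20, 0.240 and 0.167. Among the genes named from the lists, FPKM lay above its upper bound in all 3 leukaemias for Ctsd, Grn, Tyrobp, Fcer1g, S100a8, Ly6c2, Plac8 and the B lineage gene Blnk. It did so in 1 leukaemia for Aif1, Abcg1, Cfp and Itgb2 and in 2 for Lgmn, Ngp, Camp, Lcn2 and Retnlg. For these the offset may differ between the libraries of a pair. The calls of Aif1 (1.02) and Lgmn (1.01) lay close to the threshold.

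B lineage genes had summed FPKM of 8858, 7587 and 5800 over 10 genes, with 0 called for leukaemia 1 minus 3, 2 higher for 1 minus 2 (Blnk and Cd22) and 1 lower for 2 minus 3 (Blnk). Their median differences were 0.55 for leukaemia 1 minus 3 and 0.27 for 2 minus 3. T lineage genes had summed FPKM of 214, 207 and 111 over 10 genes. The kinase gene Lck made up 77.1, 164.7 and 75.6 of these sums, and without it they were 137, 42.1 and 35.2. The sums without Lck still hold Bcl11b, at 1.61, 12.7 and 0.378 FPKM. Of the 10 genes 9 could be called in each pair. For leukaemia 1 minus 3, 7 were called higher and 0 lower, for 1 minus 2, 7 higher and 2 lower, and for 2 minus 3, 2 higher. Lck and Bcl11b were the 2 called lower for 1 minus 2 and the 2 called higher for 2 minus 3. The list median for 2 minus 3 was -0.12. The 10 housekeeping genes had 0 calls in any pair and a median difference of -0.40 for leukaemia 1 minus 3. Scaled to the median of these genes, the median of all genes for leukaemia 1 minus 3 moved by 0.11 on the log2 scale. With that scaling 5 of 9 macrophage genes were called higher, where C1qa and C1qc joined Apoe, C1qb and Lyz2. Of all genes, 805 were then called higher in place of 693, and 10.1% of those tested were called in either direction.

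**Figure D4:**
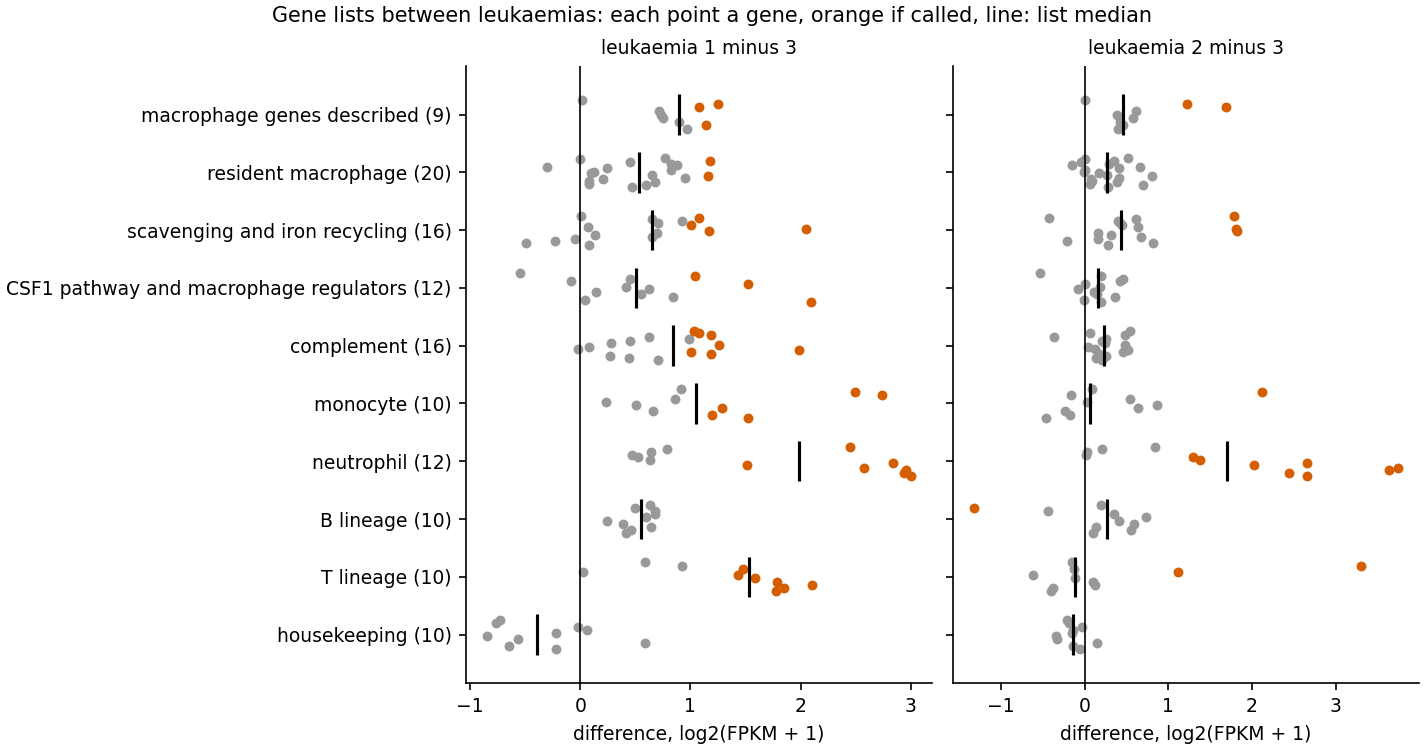
Differences in log2(FPKM + 1) for leukaemia 1 minus 3 and 2 minus 3 of the 9 macrophage genes and of 9 further lists, with 1 point per gene, orange for called genes, black lines for list medians and list sizes in parentheses. Neutrophil genes reach the largest differences in both panels, T lineage genes are shifted in the first panel, and housekeeping medians lie below 0.

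Genes whose pattern over the 3 leukaemias was most like the macrophage genes were sought among 6534 genes with FPKM of at least 5 in every leukaemia that were in no list. Ribosomal, mitochondrial, microRNA and unnamed genes had been left out of the 6534. Likeness was the root mean square distance between profiles of log2(FPKM + 1) centred over leukaemias and the mean profile of the 9 genes, which was 0.34, 0.15 and -0.49. The nearest were Gltscr1 (distance 0.01), Arntl (0.02), Gbp4 (0.03), Sft2d2 (0.03) and Ube2j1 (0.03). Over only 3 libraries 57 of the 6534 genes lay within a distance of 0.1. Of the 9 genes themselves, Csf1r (0.04) and Cd68 (0.05) lay within it and Lyz2 was farthest at 0.45.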

How the data were processed

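RNA of homogenised leukaemic thymus was sequenced in 3 libraries of 1 group. The submitters' processing notes name build mm10, TopHat2 2.0.9, Cuffdiff 2.1.1, Trim Galore 0.2.8.1 and Cufflinks, whose version they do not state, and give neither settings nor order. The deposited values are FPKM per gene with lower and upper 95% bounds, per the file headers. They hold no counts, so no count test was used. No source used here gives library sizes. Counts implied by the intervals were whole to within 0.05 for only 12.6%, 12.1% and 13.4% of values under 200, so no reads could be recovered. The median interval of loci with FPKM of at least 1 had a half-width of 5.51%, 5.63% and 5.35% of its midpoint, and FPKM exceeded its upper bound in 27.3%, 28.2% and 28.6% of these loci.

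Of 25020 rows per table, 26 whose symbol had become a date were left out. FPKM and bounds were summed over the loci of 286 symbols with several, which left 24437 genes. All 9 macrophage genes had status OK. The labels do not say that each thymus came from another mouse. Differences were taken as log2(FPKM + 1), which understates those of low genes, and calls used the criteria given in the results. The macrophage genes and the 12 lists were chosen with earlier results of these data known. The text names the 9 genes, the 5 nearest patterns and any gene of the macrophage, scavenging, CSF1 pathway and regulator, and complement lists. For other lists it names the highest or called genes. Besides these, Lyz1, the neutrophil genes Ltf, Elane, Mpo, Lcn2 and Retnlg and the monocyte gene Cd14 were chosen after their values were seen. C1s was read as C1s1. Coordinates are those of the tables, 1-based, as 64.02% of starts were 1 below those of RefSeq GRCm38. Alternatives were other pseudocounts, filters, thresholds and scalings, interval midpoints and each library left out. Python 3.11.15, numpy 2.4.6, pandas 2.3.3 and matplotlib 3.10.9 were used.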

Additional observations from a re-analysis of the deposited data

How the results depend on the processing

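No paired analysis was possible because the 3 libraries form 1 group. Of the 9 macrophage genes, 0, 3 and 2 were called for leukaemia 1 minus 2, 1 minus 3 and 2 minus 3. With a threshold of 1.5 times in place of 1 on the log2 scale these counts were 2 (C1qb higher, Lyz2 lower), 8 and 3, and with a threshold of 2 they were 0, 0 and 0. With housekeeping scaling 5 were called for leukaemia 1 minus 3, where 10.1% of all genes tested were called. Under the other alternatives run the counts stayed at 0, between 3 and 4, and at 2. Pseudocounts of 0.1 and 0.01 added Adgre1 and upper quartile scaling added C1qa for leukaemia 1 minus 3. Of the expressed genes none changed direction under any alternative in any pair. The median difference of the 9 genes ranged from 0.06 (without the C1q genes) to 0.49 (pseudocount 0.01) for leukaemia 1 minus 2, from 0.74 to 1.11 for 1 minus 3 and from 0.44 to 0.64 for 2 minus 3. Pseudocount 0.01 moved the first by over 1.5 times, since Vsig4, listed at 0 in leukaemia 2, then gains weight. The total of all genes called for leukaemia 1 minus 2 was 840, and it was 1291 and 1345 with pseudocounts of 0.1 and 0.01. For leukaemia 1 minus 3 it was 1024, and 1558 with 0.01, and for 2 minus 3 it was 470, and 735 with 0.01 and 287 with FPKM of at least 5. With the threshold of 1.5 times the totals were 2162, 2706 and 1121, or 21.0%, 26.4% and 11.2% of genes tested. With 2 they were 169, 180 and 118, or 1.64%, 1.75% and 1.17%. Leaving out each library in turn, mean FPKM ranged from 27.6 to 39.3 for C1qa, 32.8 to 49.9 for C1qb, 29.1 to 40.2 for C1qc, 4.51 to 6.01 for Csf1r, 1.53 to 2.26 for Adgre1, 10.1 to 12.9 for Cd68, 30.5 to 53.0 for Lyz2, 152 to 216 for Apoe and 0 to 0.00650 for Vsig4. Leaving out leukaemia 3 gave the highest mean for the 8 expressed genes. With interval midpoints means were 28.6 for C1qa, 35.5 for C1qb, 29.3 for C1qc and 34.8 for Lyz2, and ratios to C1q moved beyond their SD for Csf1r (-2.60, from -2.83), Adgre1 (-4.05, from -4.29) and Cd68 (-1.44, from -1.70). Values of Vsig4, Timd4, Cd163 and other genes far under FPKM of 1 are at the limit of what this depth resolves.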

Other observations

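Few dendritic and stromal genes were called. Of 10 dendritic genes, 1 reached FPKM of at least 1 in all 3 leukaemias, Ccr7, a homing receptor that lymphocytes also carry, at 6.03, 3.57 and 8.76 FPKM, and it was called lower for leukaemia 2 minus 3 (-1.10). Ccr7 was the only 1 of the 10 that could be called in any pair. The dendritic factor gene Batf3 stood at 0.714, 0.228 and 0.441 FPKM and Clec10a at 0.672, 0.417 and 0.222, and Cd207 was listed at 0 in all 3. Of 10 genes of stroma and endothelium, Pecam1 (41.9, 46.7 and 22.5 FPKM) was called higher for leukaemia 2 minus 3 (1.02), and the collagen genes Col3a1 (1.79, 1.84 and 1.01) and Col1a1 (1.87, 1.42 and 0.772) were lowest in leukaemia 3 without a call. Only 5, 5 and 4 of these 10 could be called, in the order 1 minus 2, 1 minus 3 and 2 minus 3. In that order their median difference was 0.03, 0.34 and 0.28, beside 0.17, 0.90 and 0.46 for the 9 macrophage genes. FPKM in leukaemia 1 was 2.42 times that in leukaemia 3 for Col1a1, 1.86 for Pecam1 and 1.78 for Col3a1. The 8 expressed macrophage genes lay between 1.72 (Cd68) and 2.39 (Apoe). Adding 1 narrows the differences of genes as low as the collagen genes. Some of the 10 were higher in leukaemia 3 than in leukaemia 1. Of 8 genes of thymic epithelium, only 2 reached FPKM of 1 and could be called, and 0 were called in any pair. Ccl25 was at 2.57, 2.32 and 1.94 FPKM and Prss16 at 1.41, 1.65 and 3.57. Foxn1 and Aire, defining factors of that epithelium, were at 0, 0.00544 and 0 and at 0, 0.00949 and 0.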
